A study of Mus musculus with 15 samples.

Results

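A set of 10 transcription regulator genes, most of which cells switch on soon after a stimulus or a stress, was followed in mouse liver: the AP-1 genes Fos, Fosb, Fosl2, Jun, Junb and Jund, and with them Egr1, Atf3, Myc and Ier2. A gene was taken when a probe that is not a control carried its symbol in the scanner files, and all 10 were found, with 11 probes, among the 22032 gene symbols and 55681 probes of the array. None of the 10 differed between the groups of mice at an adjusted p under 0.05. The 2 that stood furthest apart between the mice given the carcinogen and the empty plasmid and the controls were Jun, lower in all 4 of the former livers than in all 3 control livers, and Egr1, higher on average. Neither passed the test, and 19.1% of all gene symbols were without overlap between these groups.

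Liver RNA of male CD1 mice was hybridised to 15 single-colour arrays. Group C (Control) received saline and the empty plasmid, and group T (DEN) received diethylnitrosamine, a liver carcinogen, and the empty plasmid. Group G (Gas1) received DEN and a plasmid in which the CAG promoter drives HA-tagged Gas1, a growth arrest gene. All 3 groups were injected with plasmid by hydrodynamic gene delivery, a rapid large-volume injection that reaches only part of the liver cells, mostly near blood vessels, and no group went without it. The labels give an age of 10 weeks for every mouse, whereas the study's methods describe livers taken at a much later age. Arrays C3 and C4 share an RNA code, as do T4 and T5, so each pair was averaged, which left 3 livers in C, 4 in T and 6 in G. Nothing in the labels says more about how the mice were housed or paired, and p-values measure the spread between these livers.

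AP-1 is a dimer of basic leucine zipper proteins, a Jun protein paired with another Jun or with a Fos protein, and it binds a short palindromic DNA element. Fos, Junb, Egr1, Atf3 and Ier2 are immediate early genes: their transcripts need no new protein synthesis and mostly decay again soon after. In liver, Jun is known for a part in the regrowth of hepatocytes and in the start of chemically induced tumours, and Myc for driving ribosome production and growth.

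What the array reads of each gene is a probe of 60 bases, and for Fos it is printed at 10 spots per array. The first 30 bases of 5 probes are shown, since whether these probes gave a signal decides what can be said of each gene. No base is in capitals because no part is singled out, and positions are those of mm9 in the files.
Jun, chr4:94716958-94716987, - strand: atgctaacgcagcagttgcaaacgttttga
Jund, chr8:73224436-73224465, + strand: ttttgctacgagtccacattcctgttccgt
Fos, chr12:86817900-86817929, + strand: ggactttattttccagtagatagaaatcaa
Atf3, chr1:192994577-192994606, - strand: cacagcagctttgtccttggctacaaactg
Myc, chr15:61821417-61821446, + strand: aacagttgaaacacaaactcgaacagcttc
The Fos probe had a GC content of 35%, and 2.52% of the array's probes had a lower one. The Jun probe had one of 51.7%, against a median of 43.3%. The Egr1 probe and the Fosl2 probe farther from the gene start also had 35%, and both were well above background on 14 of 15 arrays.

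The RefSeq promoter table holds 7 of the 10 genes, all but Egr1, Myc and Ier2. In the 250 bases before the start, the AP-1 element TGANTCA was searched on both strands and matched in none of the 7, while 6.75% of all 32851 promoters of that table hold it. The CRE-like element TGACNTCA, which differs from it by 1 inserted base, was also searched on both strands. It matched in Jun alone, 45 bases before the start, and in 7.49% of all promoters. The upstream sequences of Jun and of Fos are shown because the Jun probe was well above background on every array and the Fos probe on 1, with the CRE-like match in capitals (GRCm38.p6, RefSeq).
Jun, chr4:95052223-95052472, - strand: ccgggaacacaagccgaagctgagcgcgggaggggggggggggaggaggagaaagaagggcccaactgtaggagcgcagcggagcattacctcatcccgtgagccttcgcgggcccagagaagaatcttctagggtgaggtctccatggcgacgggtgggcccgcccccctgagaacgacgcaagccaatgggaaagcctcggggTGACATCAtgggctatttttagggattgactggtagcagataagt
Fos, chr12:85473640-85473889, + strand: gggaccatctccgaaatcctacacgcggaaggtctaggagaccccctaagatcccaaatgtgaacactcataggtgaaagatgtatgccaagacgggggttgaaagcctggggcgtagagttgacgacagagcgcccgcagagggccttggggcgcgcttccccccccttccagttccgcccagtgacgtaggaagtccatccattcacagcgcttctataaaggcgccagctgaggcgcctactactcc
The E-box CACGTG that Myc binds and the element GCGTGGGCG that Egr1 binds matched in none of the 7 either, and they are held by 6.02% and 0.536% of all promoters. A match is a description of the letters in the window and nothing more.

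Signal split the 10 genes into those that the arrays measured and those at background. Jun and Jund were well above background on all 15 arrays, and Egr1, Ier2 and Fosl2 on 14, the exception in each case being array C2. Myc was well above background on 6 arrays and Atf3 on 5. Fos was so on 1 array, T1, at 1 of its 150 spots, Junb on 1 array, G4, and Fosb on none. Array C2 had the fewest spots well above background of all arrays, 15707 of 59305, and the range over the 15 arrays was 15707 to 29765. The lowest normalized signal still called well above background lay between 6.07 and 6.55 on the log2 scale, depending on the array. Values near 6 are therefore at the floor of the measurement, and a low signal there does not show that a transcript is absent. As the RNA is from whole liver, fewer cells of a type and less RNA per cell cannot be told apart.

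**Figure D1:**
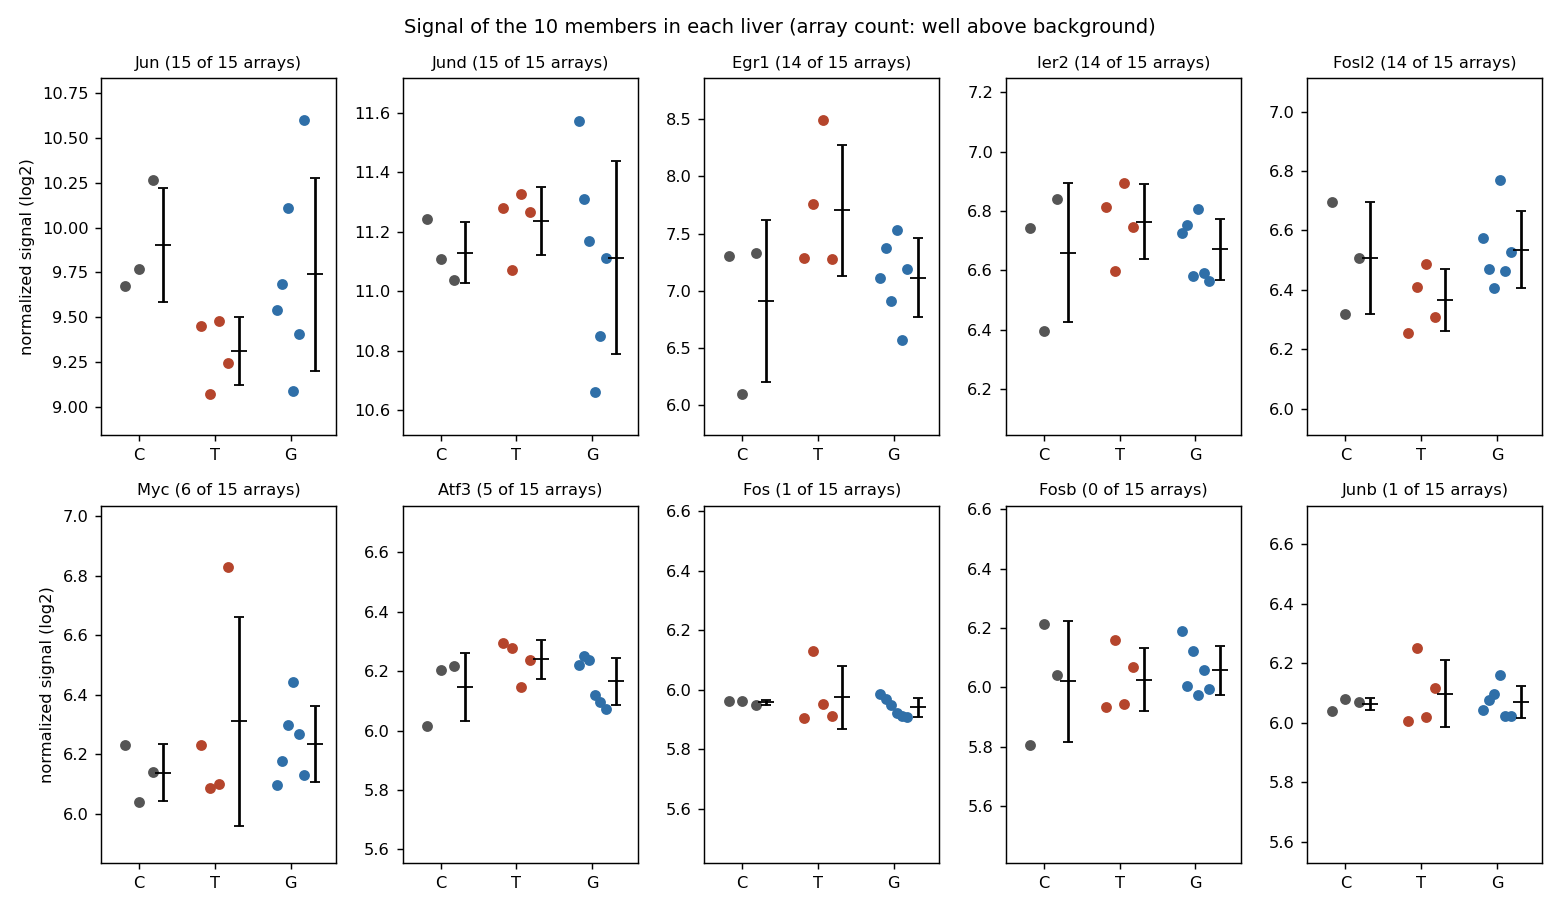
Normalized signal (log2, vertical axis) of the 10 genes in each liver of groups C (3), T (4) and G (6), with the group mean and SD as a bar beside the points, and above each panel the number of arrays on which the gene was well above background. All 4 Jun points of group T, 9.07 to 9.48, lie below all 3 of group C, 9.67 to 10.27, while Fos, Fosb and Junb stay between 5.81 and 6.25 in every liver.

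Jun, a partner that Fos proteins need to form stable dimers, was among the best measured. Its normalized signal was 9.67, 9.77 and 10.27 in the livers of group C and 9.45, 9.07, 9.48 and 9.24 in those of group T, on the log2 scale. Group G ran from 9.09 to 10.60, with a median of 9.61. The livers of T and C did not overlap, as for 19.1% of all genes, and those of G, which received the carcinogen too, spanned almost the whole range of both. T minus C was -0.59 (SE 0.29, n = 4 and 3 livers), with an interval from -1.22 to 0.03, or 0.664-fold, and the adjusted p was 0.274 (limma). The exact permutation test, two-sided, gave p = 0.0571 for it, the smallest that 4 against 3 livers allow. G minus T was 0.43 (SE 0.24, adjusted p = 0.561, limma) and G minus C -0.16 (SE 0.27, adjusted p = 0.841, limma). With arrays as samples, T minus C was -0.80 on slide 1 and -0.64 on slide 2. Livers C3 and T4 were run on both slides, so these values are not independent. Under median scaling of the arrays T minus C turned to 0.32, and the median of the 2859 genes above log2 9 was 0.93 under that scaling, so that Jun lay 0.61 below them.

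Jund, the Jun protein that resting cells keep, was well above background in every liver. Its signal was 11.24, 11.11 and 11.04 in group C, 11.28, 11.07, 11.33 and 11.27 in T, and from 10.66 to 11.57 with a median of 11.14 in group G. The 3 groups overlapped, and group G held both the lowest and the highest liver. T minus C was 0.11 (SE 0.17, adjusted p = 0.781, limma) and the interval ran from -0.26 to 0.47. G minus T was -0.12 (SE 0.14, adjusted p = 0.802, limma), and it ran from -0.22 without liver G1 to -0.03 without G4. Under median scaling T minus C became 1.10 (adjusted p = 0.047, limma), or 0.18 above the median of the genes over log2 9.

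Junb, an immediate early Jun protein, gave 6.01 to 6.25 over groups T and G and 6.04, 6.08 and 6.07 in group C. Its means in the 3 groups lay within 0.04 of each other, all at the floor, so no fold is given.

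Of the Fos family, Fosl2, which encodes Fra-2, was measured. Its signal was 6.70, 6.32 and 6.51 in C and 6.25, 6.41, 6.49 and 6.31 in T, and it ran from 6.40 to 6.77 in group G, with a median of 6.50. The lowest value of group C was that of array C2, and the 3 groups overlapped. T minus C was -0.14 (SE 0.10, adjusted p = 0.464, limma) and G minus T 0.17 (SE 0.08, adjusted p = 0.493, limma). Without liver C1 T minus C was -0.05, and without C2 -0.24. With the scanner's own processed signal T minus C was -1.02 (adjusted p = 0.109, limma) and G minus T 0.95 (adjusted p = 0.321, limma), neither past the threshold. Its 2 probes were also read one by one. The probe nearer the gene start was well above background on 3 of 4 arrays of C, none of 5 of T and 3 of 6 of G, and its mean in T lay below the floor. Against the mean floor of the T livers, 6.28, the mean over all livers of C, those at the floor included, stood 1.08-fold higher (means 6.40 and 6.15, adjusted p = 0.467, limma). That of G stood 1.13-fold higher (means 6.46 and 6.15, adjusted p = 0.488, limma). Neither difference passed, and as both means include arrays at the floor, neither fold is a lower bound. The probe farther from the start gave a T minus C of -0.04 (SE 0.12, limma).

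Fos, the classic partner of Jun, stayed at the floor. Its signal was 5.96, 5.96 and 5.95 in group C, 5.91, 6.13, 5.95 and 5.91 in T, and from 5.91 to 5.98 with a median of 5.93 in group G. Fosb, a Fos protein best known from stimulated cells, gave 5.81, 6.21 and 6.04 in group C, 5.94, 6.16, 5.94 and 6.07 in T, and 5.98 to 6.19 in group G. No fold is given for either, since all 3 groups lay at or under the floor.

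Egr1, a zinc finger factor induced by growth signals, had the widest differences of the 10. Its signal was 7.30, 6.10 and 7.33 in group C, 7.29, 7.75, 8.50 and 7.28 in T, and from 6.57 to 7.53 with a median of 7.15 in group G. Liver C2, the one array on which Egr1 was not well above background, was the lowest of all 13, and T3 was the highest. T minus C was 0.79 (SE 0.35, n = 4 and 3 livers), which is 1.73-fold with an interval from 1.03 to 2.91-fold. It did not pass the test after adjustment (adjusted p = 0.223, limma), and its unadjusted p in limma was 0.0401. The exact permutation test, two-sided, gave p = 0.343 for T minus C. Under median scaling it was 1.11 (adjusted p = 0.0581, limma) and with the scanner's processed signal 1.67 (adjusted p = 0.132, limma). Without liver C2 it was 0.38 (adjusted p = 0.578, limma), and without liver T3 0.53 (adjusted p = 0.437, limma). G minus T was -0.59 (SE 0.29, adjusted p = 0.494, limma) and -0.32 without T3. G minus C was 0.20 (SE 0.32, adjusted p = 0.834, limma), and it turned to -0.20 without C2. By slide, T minus C was 0.79 on slide 1, which holds C2, and 0.38 on slide 2, and both values include livers C3 and T4.

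Ier2, an immediate early gene of nuclear localisation, was measured at a low level. Its signal was 6.74, 6.40 and 6.84 in group C, the low value being C2 again, 6.81, 6.60, 6.90 and 6.75 in T, and from 6.56 to 6.81 with a median of 6.66 in group G. T minus C was 0.10 (SE 0.10, adjusted p = 0.638, limma) and turned to -0.03 without C2. The groups overlapped throughout.

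Atf3, a stress-induced bZIP repressor, was well above background on 1 of 4 arrays of C, 2 of 5 of T and 2 of 6 of G. Its signal was 6.02, 6.20 and 6.22 in group C, 6.29, 6.28, 6.15 and 6.24 in T, and from 6.07 to 6.25 with a median of 6.17 in group G. T minus C was 0.09 (SE 0.07, adjusted p = 0.479, limma) on the scale of normalized log2 signal, and 0.03 without liver C1. That scale would understate any change so near the floor, in either direction. With an offset of 16 T minus C was 0.18 (adjusted p = 0.474, limma), and with the scanner's processed signal -0.12 (adjusted p = 0.825, limma).

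Myc, a growth and ribosome factor, stood out in 1 liver. Its signal was 6.23, 6.04 and 6.14 in C and 6.23, 6.08, 6.10 and 6.83 in T, and it ran from 6.10 to 6.44 with a median of 6.22 in group G. Liver T4 was the highest of all 13, and its 2 arrays, on different slides, gave 6.85 and 6.81, with both Myc spots well above background on each. T minus C was 0.17 (SE 0.15, adjusted p = 0.575, limma) and 0.00 without T4 (adjusted p = 0.996, limma). G minus T was -0.08 (SE 0.13, adjusted p = 0.882, limma) and turned to 0.10 without T4.

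**Figure D2:**
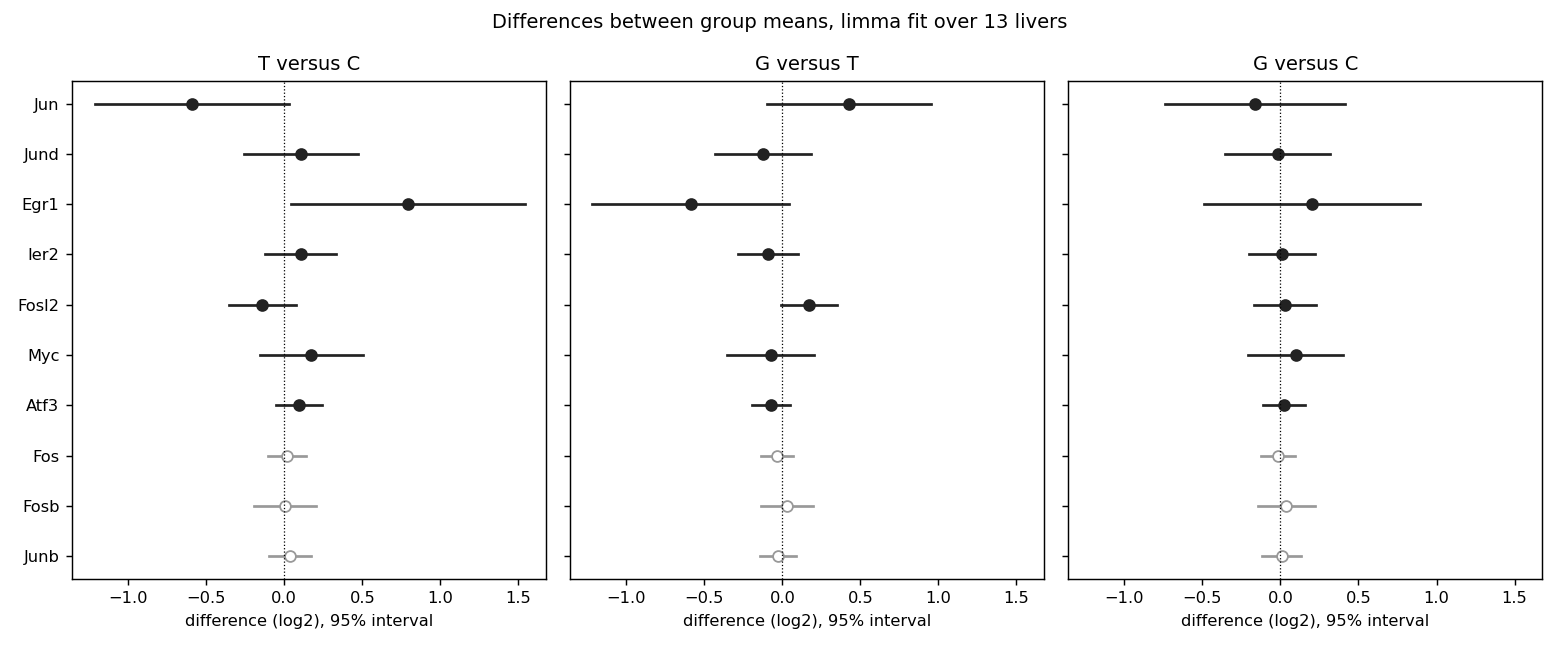
Differences between group means (log2, horizontal axis) with their 95% intervals from the limma fit over 13 livers, 1 panel per comparison; open grey points mark the 3 genes well above background on at most 1 array. The Egr1 interval for T versus C, 0.04 to 1.54, is the one that leaves out 0, and its adjusted p was 0.223 (limma).

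Over the comparisons, 0 of 10 genes passed an adjusted p of 0.05 between T and C, where 2.38% of all 22032 gene symbols passed. Between G and T it was 0 of 10, against 0.127% of all, and between G and C 0 of 10, against 0.427%. At an unadjusted p under 0.05 there was 1 of 10, Egr1, between T and C, where 20.3% of all genes had one, and none in the others, where 10.9% (G and T) and 13.2% (G and C) had one (limma). None of these counts exceeds the share over all genes. The methods' t-test with equal variances put 1 of the 10, Jun, under an unadjusted 0.05 between T and C, and with unequal variances none. The share of all genes under that threshold was not counted for these tests. After Benjamini-Hochberg both called 0 of 22000 gene symbols between T and C, so their lack of calls says nothing particular of the 10. The livers of T and C did not overlap for 1 of 10, Jun, against 19.1% of all genes. None of the 10 was without overlap between G and T, where 3.13% of all were, or between G and C, where 5.86% were. The median difference of the 10 was 0.06 between T and C, -0.05 between G and T and 0.02 between G and C, beside 0.01, -0.01 and 0.00 over all genes. These 3 comparisons share livers.

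The genes differed in how much livers of 1 group varied. The SD within groups was 0.51 for Egr1 and 0.42 for Jun, against a median of 0.158 over the 9301 genes well above background on 14 or 15 arrays. Of those genes 97.0% had a smaller SD than Egr1 and 95.1% a smaller one than Jun. Jund, with 0.24, exceeded 80.6%, while Ier2 with 0.15 and Fosl2 with 0.14 lay below that median. Among genes of like signal, within 0.5 on the log2 scale, the share below Egr1 was 98.5%, below Jun 93.2%, below Jund 73.6%, below Ier2 58.3% and below Fosl2 57.1%. Within group G alone the Jun signal ran over 9.09 to 10.60.

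**Figure D3:**
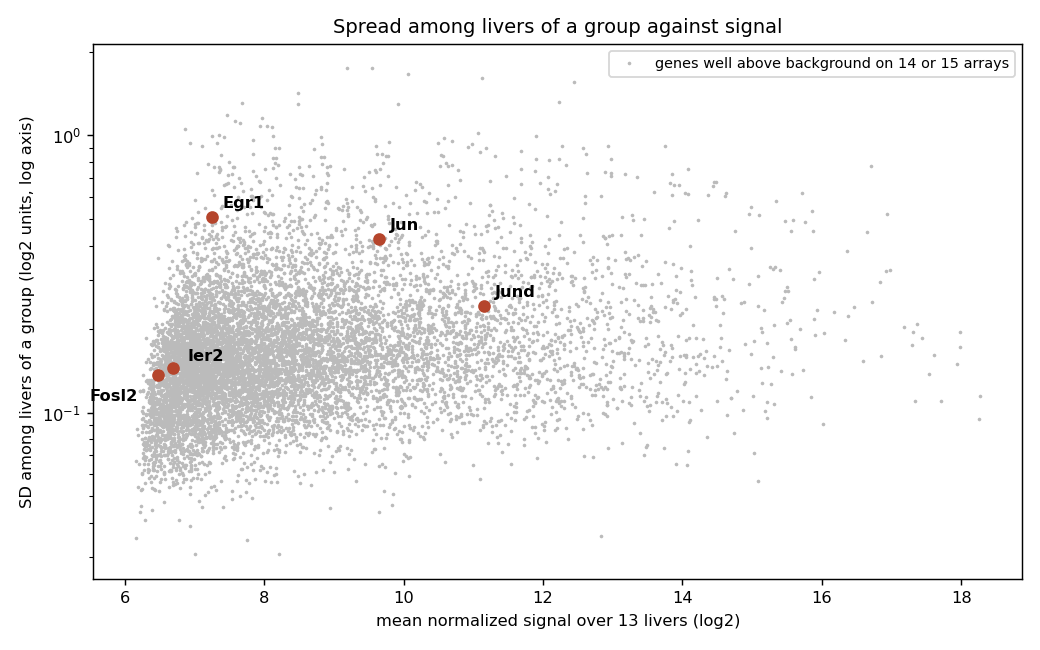
SD among livers of 1 group (log2 units, logarithmic vertical axis) against the mean signal over 13 livers (log2) for the 9301 genes well above background on 14 or 15 arrays, in grey, with the 5 measured members in red. Egr1, at 0.51, and Jun, at 0.42, lie near the upper edge of the cloud, and Ier2 and Fosl2 lie within it.

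Whether the genes rose and fell together from liver to liver was asked with the deviations from the group means over 13 livers. Of the 45 pairs, 0 passed an adjusted p of 0.05 by either measure, and 7 by Pearson and 2 by Spearman were under 0.05 without adjustment (permutation test, 100000 resamples, two-sided). The closest pair was Fosl2 and Egr1, with r = 0.78 and rho = 0.76 (permutation p = 0.0017 and 0.0038, adjusted 0.0774 and 0.106). Without the 2 livers farthest from the median of Fosl2 their r was 0.83. Over the 6 livers run on slide 2 only it was 0.80, and within the 6 livers of group G 0.66. These last values are not independent, since G1, G2 and G5 are in both. C1 was the only control among the livers of slide 2 only, so centring fixed its deviation at 0. With the livers run on both slides left out, slide 1 held 5 livers, too few for a value. Egr1 and Ier2 gave r = 0.73 and rho = 0.75 (permutation p = 0.0053 and 0.0047, adjusted 0.120 and 0.106). Their r fell to 0.30 without C2 and T3. Within the 6 livers of group G, which hold neither, it was 0.73. Fosl2, Egr1 and Ier2 share array C2, the array with the fewest spots well above background, as the one array where none of their probes was well above background. The Fosl2 probe nearer the gene start was so on only 6 of the 15 arrays.

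The genes most like Jun over the livers, among 8492 genes detected on all 15 arrays, were Baiap2l2 (r = 0.90 over 9 livers with a value in both), Idh2 (r = 0.88 over 13) and Maml1 (r = 0.82 over 12). Idh2 encodes the mitochondrial isocitrate dehydrogenase, and its mean signal was 11.14 in C, 10.70 in T and 11.12 in G. Those most like Jund were Psmd4, a proteasome subunit (r = 0.91 over 13), Gtf3c1, a subunit of a polymerase factor (r = 0.89 over 13), and Rpl14, a ribosomal protein (r = 0.87 over 13). These are descriptions of the highest values among all those searched, over livers that share 2 slides.

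The neighbours of these genes in the same routes were read from lists, beside the 2.38%, 0.127% and 0.427% of all genes called in T versus C, G versus T and G versus C. Of 18 other AP-1 and bZIP partners, none passed in any comparison, and their median T minus C was 0.10. Among these 18, 8 were well above background on 14 or more arrays and 3 on none. The 2 with the smallest unadjusted p there were the small Maf proteins Maff (T minus C 0.44, SE 0.15, adjusted p = 0.126, limma) and Mafk (0.41, SE 0.15, adjusted p = 0.151, limma). Of 41 other immediate early genes 1 rose in T against C, a share like that of all genes. It was Btg2, an antiproliferative gene, with 6.06, 5.86 and 6.20 in C and 6.37, 6.58, 6.58 and 6.45 in T (0.46, SE 0.10, adjusted p = 0.0323, limma). Btg2 was well above background on 1 of 4 arrays of C and 4 of 5 of T, so the size of this difference is uncertain. The other 40 did not pass. Among the 41, 25 were well above background on 14 or more arrays and 6 on none. The median of the list was 0.09 between T and C, 0.07 between G and T and 0.12 between G and C, and none of the 41 passed in the last 2. Of 25 genes of the MAP kinase route, which carries growth signals to AP-1 and Egr1, 1 rose in T against C. It was Egfr, the receptor of epidermal growth factor, with 10.49, 9.35 and 10.17 in C and 10.96, 11.43, 11.25 and 11.09 in T (1.18, SE 0.27, adjusted p = 0.0439, limma). The call was lost without any 1 of the 3 control livers (adjusted p = 0.0516 without C1, 0.111 without C2 and 0.0588 without C3, limma).

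Of 15 AP-1 target genes none passed in any comparison. Only 6 of them were well above background on 14 or more arrays, and 6 were so on none, which limits what their lack of calls says. The 2 with the smallest unadjusted p between T and C were the chemokine Ccl2 (-0.20, SE 0.08, adjusted p = 0.160, limma) and the metalloproteinase inhibitor Timp1 (0.25, SE 0.11, adjusted p = 0.227, limma). Ccl2 was well above background on 10 of 15 arrays and Timp1 on 2, so the sizes of these differences are uncertain. Of 20 Myc target genes 2 rose in T against C, Nop56, a ribosome assembly protein (0.63, SE 0.10, adjusted p = 0.0114, limma), and Tfrc, the transferrin receptor (0.21, SE 0.05, adjusted p = 0.0394, limma), while 18 did not pass. Tfrc was well above background on 1 of 4 arrays of C and 5 of 5 of T, so the size of its difference is uncertain. Nop56 was 7.62, 7.56 and 7.57 in C and 8.12, 8.04, 8.15 and 8.55 in T, and in T it was highest in T4, the liver in which Myc was highest. Without T4 the T minus C of Nop56 was 0.52 and that of Myc 0.00. A link between Nop56 and Myc was not tested. Of 12 Myc network partners none passed, the 2 nearest being Mxd1, an antagonist of Myc (0.29, SE 0.07, adjusted p = 0.0563, limma), and Mxd3 (-0.19, SE 0.08, adjusted p = 0.189, limma). Among these 12, 7 were well above background on 14 or more arrays and 2 on none, and Mxd3 was so on 4 of 15. Of 9 genes of Atf4 and the integrated stress response, which also turns on Atf3, 1 rose in T against C. It was Asns, asparagine synthetase, with 6.19, 5.88 and 6.26 in C and 7.57, 9.63, 8.04 and 9.14 in T (2.48, SE 0.60, adjusted p = 0.0497, limma). Asns was well above background on 1 of 4 arrays of C and 5 of 5 of T, so the values of C are at or near the floor and the size of the difference is uncertain. Of these calls only that of Nop56 held with each of the 13 livers left out in turn. Those of Asns and Tfrc were each lost without 9 of the 13, that of Egfr without 8 and that of Btg2 without 5, in each case C1, C2, T2, T3 and T4 among them. None of these lists had a gene that passed between G and T, and none of them but the clock list between G and C.

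Some clock genes differed from controls in both other groups. Of 15 on the array, 4 rose in T against C: Dbp (3.72, SE 0.67, adjusted p = 0.0196, limma), Tef (1.53, SE 0.33, adjusted p = 0.0353, limma), Nr1d1 (0.97, SE 0.18, adjusted p = 0.0232, limma) and Nr1d2 (0.97, SE 0.22, adjusted p = 0.0407, limma). Dbp, Tef and Nr1d1 rose in G against C, by 4.29, 1.68 and 1.49 (adjusted p = 0.0252, 0.0412 and 0.0223, limma), and none passed between G and T. With 1 liver left out the calls between T and C were lost in 3 of 13 cases for Dbp, 2 for Nr1d1, 6 for Tef and 8 for Nr1d2, and those between G and C in 3 for Dbp, 1 for Nr1d1 and 11 for Tef. Dbp was 7.03, 8.26 and 7.08 in C, 9.37, 11.99, 11.44 and 11.90 in T and at least 10.59 in G, with no overlap between C and the other groups. The part of this shift in the values of Jun and Egr1 was not tested.

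**Figure D4:**
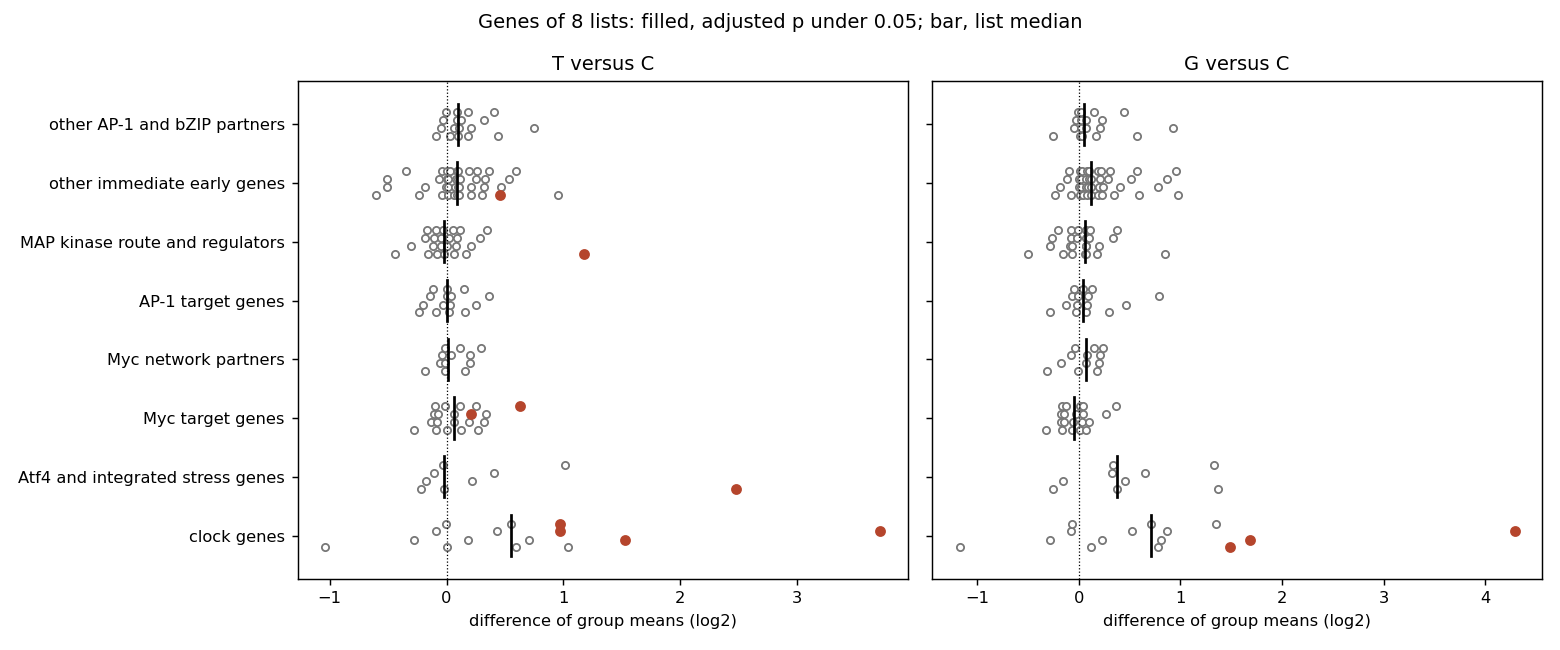
Differences of group means (log2, horizontal axis) for the genes of 8 lists, in T versus C and in G versus C; filled red points had an adjusted p under 0.05 (limma), open points did not, and the black bar is the median of the list. The filled points are Btg2, Egfr, Nop56, Tfrc, Asns and 4 clock genes on the left, and 3 clock genes on the right, with Dbp farthest out in both.

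The tissue showed as liver: all 10 hepatocyte markers were well above background on every array. Of them Ttr and Ass1 fell in T against C by 1.01 and 0.60 on the log2 scale (adjusted p = 0.00594 and 0.0133, limma), and the other 8 did not pass, among them Apoa1 at 0.54 (adjusted p = 0.0686, limma) and Hnf4a at 0.38 (adjusted p = 0.101, limma). The macrophage marker Emr1, well above background on 2 of 4 arrays of C and 5 of 5 of T, rose by 0.31 (adjusted p = 0.0262, limma), and the other 7 macrophage markers did not pass, with Cd68 at -0.25 (adjusted p = 0.101, limma). No other marker passed in any comparison. Of 8 marker lists, the summed signal of 2 did not overlap between T and C, where 19.1% of all single gene symbols did not. The sums are of linear signal, so the brightest markers weigh most. That of the 10 hepatocyte markers was 19.941 to 20.047 in C, 19.61 to 19.933 in T and 19.746 to 20.031 in G. That of 5 erythroid markers, 4 of them well above background on every array, was 12.977 to 13.847 in C, 14.108 to 14.532 in T and 13.285 to 15.36 in G. None of the 5 passed, and Alas2 alone was lower in T than in C (-0.13, adjusted p = 0.718, limma). The sum of the 8 macrophage markers overlapped, with 10.744 to 11.278 in C, 11.011 to 11.439 in T and 11.002 to 11.595 in G, as did the sums for cholangiocytes, lymphocytes, neutrophils, stellate cells and endothelial cells. The part of these cells in the values of Jun and Egr1 was not tested. Gas1 itself, read by 3 probes on all 15 arrays, lay at 6.30 to 6.67 in C, 6.41 to 6.61 in T and 6.49 to 6.79 in G, and G minus T was 0.08 (SE 0.08, adjusted p = 0.768, limma), so these values hold no check of the label of group G.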

How the data were processed

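Single-colour microarray data of 15 liver samples were used. For every array the authors deposited a scanner file (Agilent Feature Extraction 10.7.3.1, mm9) that holds spot intensity, local background and other flags before any normalization between arrays. Their series table holds log2 values after normexp and quantile normalization, and the deposited values differed from those rebuilt here by a median of 0.0029. From the intensity, normexp (offset 50), log2 and quantile normalization were applied to 59305 spots, with 218 to 3692 outlier-flagged spots per array set to missing. Probes were centred and averaged per gene symbol, with no filter on dim probes. The pairs of arrays with 1 RNA code differed by 0.502 (C) and 0.609 (T) of the SD found for the nearest other pair in their group, and were averaged. Groups were compared in R 4.3.3 with limma 3.58.1, with a mean per group, eBayes, Benjamini-Hochberg over all symbols and a threshold of 0.05. Intervals are 95%. Exact permutation tests double the smaller tail. The fit was also run on simulated data, with noise independent between genes and shifts larger than any difference of the 10 genes. That run therefore does not show how the fit performs at differences of their size. Every gene of a list with an adjusted p under 0.05 was named, and where a list had none, the 2 with the smallest unadjusted p between T and C. The genes and lists were chosen with earlier results of these data known. Arrays give no read depth, and the number of livers limits the precision. The alternatives were another offset, scaling, probe rule and flag rule, arrays as samples, slides, a replicate block, other tests and each liver left out. Columns with a comparison made by the authors were not used. One marker gene is not reported here.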

Additional observations from a re-analysis of the deposited data

How the results depend on the processing

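In all 31 alternatives per comparison, 0 of the members tested were called between G and T and between G and C. All 10 were tested, except that leaving out dim genes kept 5. Over all genes the settings called 1 to 263 between G and T and 0 to 342 between G and C. Where hardly any gene was called, the lack of called members says little of them. Between T and C 0 members were called in 30 of the alternatives, and 1 with median scaling (Jund, 1.10). Under that scaling 2832 of all genes were called in place of 525. The count stayed at 0 with each liver left out in turn, a range of 0 to 0. Median scaling moved the median of all genes between T and C to 0.12, and the scanner's processed signal moved it to -0.40. The RNA codes and replicate numbers were treated apart. The 13 pairs of arrays with the same number in different groups correlated by -0.31 to 0.26 in their deviations, with a median of 0.079. The 61 pairs with other numbers ran from -0.317 to 0.405, with a median of 0.00012. Whether arrays of 1 number share a source cannot be told from these values. With a replicate block over 15 arrays 0 of 10 were called in each comparison, Jun gave -0.68 between T and C (adjusted p = 0.0592, limma), and G minus C turned for Ier2 (-0.0037) and Jund (0.0244), the only calls or signs it changed among the 7 genes with values.

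Of 645 member values under the alternatives, 41 changed sign, none of them past the threshold, 33 of them in G minus C. The cause was not tested. Median scaling turned Jun in T minus C (0.318) and, in G minus C, Jun (0.640) and Jund (0.834). The scanner's processed signal turned Atf3 in all 3 comparisons (T minus C -0.122, G minus T 0.0388, G minus C -0.0830), Myc in T minus C (-0.142) and G minus T (0.300), and, in G minus C, Fosl2 (-0.0616) and Ier2 (-0.0620). Cyclic loess turned G minus C of Atf3 (-0.0196), Egr1 (-0.0269), Ier2 (-0.0656) and Jund (0.0060). The brightest probe turned G minus C of Fosl2 (-0.00016), the authors' table that of Jund (0.0050), and 15 separate arrays that of Ier2 (-0.0346) and Jund (0.0056). Within slide 1 G minus C turned for Atf3 (-0.0512). Within slide 2 it turned for Egr1 (-0.293), Fosl2 (-0.101), Ier2 (-0.162), Jund (0.0493) and Myc (-0.0083), and T minus C for Ier2 (-0.0215). With 1 liver left out, G minus C ranged from -0.0452 to 0.0565 for Atf3 (turned without C1), -0.204 to 0.4145 for Egr1 (C2), -0.0656 to 0.122 for Fosl2 (C2, G4), -0.121 to 0.102 for Ier2 (C2, G1, G2, G4), -0.338 to 0.0172 for Jun (C3) and -0.109 to 0.0734 for Jund (C1, G4, G5). T minus C of Ier2 ranged from -0.0278 to 0.195 (C2) and G minus T of Myc from -0.151 to 0.0972 (T4). The same alternatives were applied, after seeing the data, to the 12 calls among list genes. None turned, and the calls held in between 12 (Tfrc, and Tef in G against C) and 26 (Nop56) of the alternatives; Asns, called at 0.0497, held in 15 of 31. Signal at the background limits what can be said of Fos, Fosb and Junb, and 3 control livers limit every comparison with C.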
